A study of Homo sapiens with 13 samples.

Results

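The regions described here are the very wide RNA polymerase II (Pol II) domains of MDA-MB-231 cells, that is, the Pol II peaks at least 10000 bp wide. They were chosen by the width of the Pol II peak alone, and 522 of the 26065 peaks in the Pol II list met this limit. MDA-MB-231 cells are an established line of human triple-negative breast cancer, and all samples were untreated cultures of this 1 line. Chromatin immunoprecipitation and sequencing (ChIP-seq) had been carried out with antibodies to Pol II, H3K4me1, H3K4me3, H3K27ac and CTCF, 2 libraries for each, and to p300/CBP, for which immunoprecipitations were pooled into 1 library. Replicates were merged before peaks were called, and each list holds positions on hg19 without a height or a count. Depth and replicate error can therefore not be read from the lists, no test was made, and the intervals given below (95% Wilson intervals for shares, order-statistic intervals for medians) cover counting error only.

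Pol II transcribes protein-coding genes, most long noncoding RNAs and the primary transcripts of most microRNAs. It starts at the promoter, often pauses shortly downstream, elongates through the gene and continues past the polyadenylation site before it terminates. A Pol II peak that covers a gene from start to end, or its 3′ flank, can thus hold initiating, elongating or terminating enzyme. The list does not tell these apart. H3K4me3 marks promoters, H3K27ac marks active promoters and enhancers, and H3K4me1 marks enhancers and the flanks of promoters. p300 and CBP are histone acetyltransferases found at active enhancers, and CTCF is an insulator protein that helps to shape chromatin loops. A domain as listed is a series of 50-bp bins above a threshold, and gaps of at most 800 bp were closed by the authors, so a domain need not be covered without interruption.

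Of the 522 domains, 1 was the mitochondrial chromosome, listed from base 1 to 16701 and so past the 16569 bases of the reference. One p300/CBP peak and no histone or CTCF peak lay on that chromosome. The other 521 domains lay on nuclear chromosomes and are the ones described in the rest of the text. The Pol II list went with the labelled cell type at most of the markers chosen for it. VIM, CD44, FOSL1 and CAV1, which mesenchymal-like breast cancer cells express, each had a Pol II peak within 500 bp of the gene start, and the widest Pol II peak touching VIM (13250 bp) and FOSL1 (13300 bp) was itself a domain. ESR1, PGR, GATA3, FOXA1, EPCAM and CDH1, PTPRC of blood cells and ALB of hepatocytes had none there. ERBB2 and KRT8, by contrast, had one.

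Sequences of 3 kinds belong to the results below. The first are mature microRNAs whose hairpins lay inside domains, shown because several of the widest domains without a protein-coding gene lay on microRNA host genes. Sequences are RefSeq entries, placed on hg19 by an exact match of the hairpin, with the seed (bases 2 to 8) in capitals. The let-7 members share 1 seed.
hsa-let-7a-5p: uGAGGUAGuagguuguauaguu
hsa-let-7b-5p: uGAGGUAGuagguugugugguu
hsa-let-7i-5p: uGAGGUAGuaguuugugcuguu
Other pairs shown here that share a seed are miR-221 and miR-222, miR-29a and miR-29b, miR-17 and miR-20a, and miR-19a and miR-19b.
hsa-miR-221-3p: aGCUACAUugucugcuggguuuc
hsa-miR-222-3p: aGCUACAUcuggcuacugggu
hsa-miR-29a-3p: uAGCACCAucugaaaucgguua
hsa-miR-29b-3p: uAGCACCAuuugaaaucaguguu
hsa-miR-17-5p: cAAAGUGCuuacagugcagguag
hsa-miR-20a-5p: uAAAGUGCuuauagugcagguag
hsa-miR-19a-3p: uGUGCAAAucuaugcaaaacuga
hsa-miR-19b-3p: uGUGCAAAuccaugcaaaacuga
The last ones each have a seed of their own among these.
hsa-miR-100-5p: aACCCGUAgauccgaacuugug
hsa-miR-125b-5p: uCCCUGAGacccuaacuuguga
hsa-miR-138-5p: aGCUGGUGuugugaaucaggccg
hsa-miR-21-5p: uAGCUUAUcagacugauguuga

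The second kind are the last 30 bases of the canonical transcript for 4 of the 10 genes whose domain ran farthest past the 3′ end, with the polyadenylation hexamer AATAAA or ATTAAA in capitals. They were shown because they hold a hexamer, and SMURF2, GALNS, BLID, C11orf68 and RRP36, also among the 10, held neither in this window. The extension was measured from the end of the annotated gene, which is the last base shown except at TRIM28, where it lies a few bases farther on. The stretches are read from the GRCh37 genome on the strand of the gene.
DUSP5, chr10:112271262-112271291: tttttatagtgtaaAATAAAaatagtaaaa
PDLIM7, chr5:176910395-176910424: agtgccacAATAAAcctgtacccagctgtg
TRIM28, chr19:59062053-59062082: tctgtggatttAATAAAaacttcaccagtt
SRSF1, chr17:56078280-56078309: gagctaATTAAAtgtgaaccctgaccagaa

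The third kind are 47-base stretches of p300/CBP peaks in 4 of the 5 domains with most such peaks. Matches to the pattern TGANTCA are in capitals. The pattern reads the same on both strands, and the plus strand is shown. It is looser than the AP-1 consensus TGA(G/C)TCA given in the paper, as it also takes TGAATCA and TGATTCA. None is shown from the domain with most p300/CBP peaks, on chromosome 16 beside an undetermined stretch, which also held matches. AP-1 is the dimeric transcription factor to which the FOSL1 product belongs.
BCL2L1, chr20:30284044-30284090: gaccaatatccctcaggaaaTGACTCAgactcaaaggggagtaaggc
LINC-PINT, chr7:130579058-130579104: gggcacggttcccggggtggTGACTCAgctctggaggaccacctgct
LINC-PINT, chr7:130598157-130598203: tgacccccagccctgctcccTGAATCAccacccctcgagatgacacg
ENC1, chr5:73928113-73928159: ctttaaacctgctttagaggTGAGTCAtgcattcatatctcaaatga
MYOF, chr10:95230979-95231025: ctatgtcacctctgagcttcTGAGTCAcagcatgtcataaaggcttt
MYOF, chr10:95235748-95235794: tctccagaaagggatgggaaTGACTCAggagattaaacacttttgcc

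The 521 domains were 2.00% of all Pol II peaks and held 19.9% of the base pairs of the list, 8.52 Mb in all. Their median width was 13350 bp, the quartiles were 11500 and 17300 bp, and the widest measured 79350 bp. Most were close to the limit, with 326 below 15000 bp, 90 of at least 20000 bp and 34 of at least 30000 bp. At the limit itself lay 9 peaks of exactly 10000 bp, among them those on CD46 and KAZALD1, and 1 bin (50 bp) below it lay 12 more. The latter included a peak over KRT8 and KRT18, the keratin pair of simple epithelia, a peak over RPS13 and PIK3C2A, and a peak on chr10:42387151-42397101 that touched no protein-coding gene. The last of these lay close to the longest undetermined stretch of chromosome 10. The width used to choose the domains is given as a description only.

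**Figure D1:**
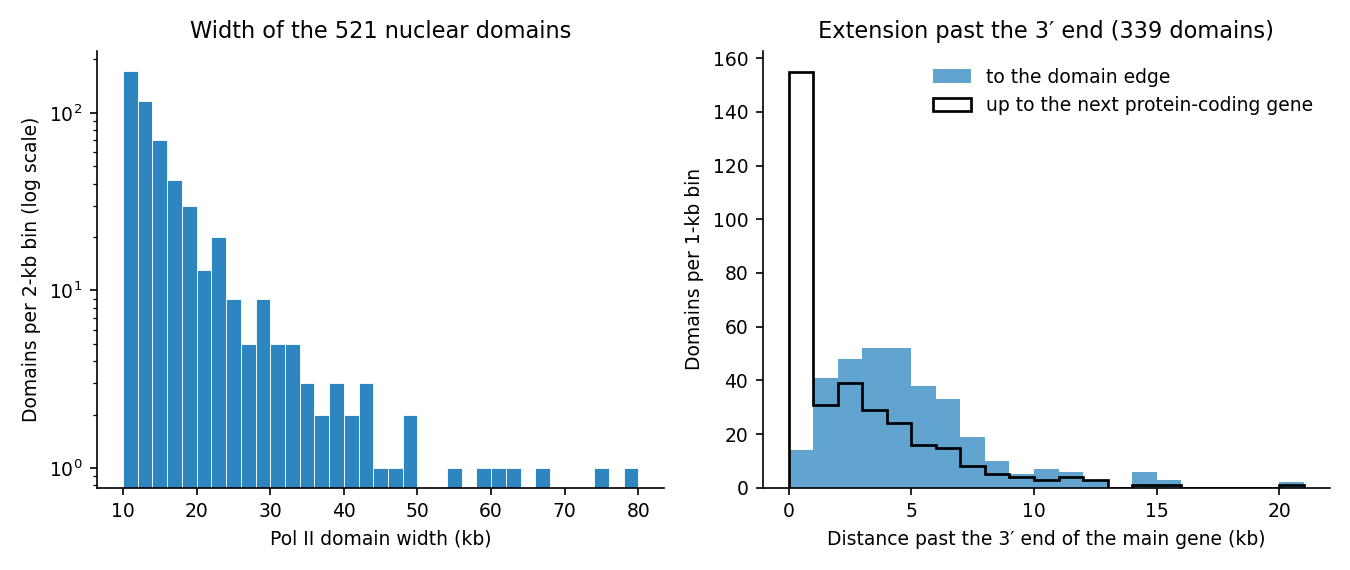
Left, number of nuclear Pol II domains (y axis, log scale) by width in 2-kb bins (x axis, kb). Right, number of domains (y axis) by distance past the 3′ end of the main gene in 1-kb bins (x axis, kb), to the domain edge (filled) and up to the next protein-coding gene (outline). Of the 521 domains, 326 were below 15000 bp, and the extension to the domain edge had a median of 4246 bp.

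Domains were unevenly spread over the chromosomes. Chromosome 19 held 62, chromosome 11 held 54 and chromosome 17 held 48, while chromosome 4 held 6 and chromosomes 21 and X held 2 each. Per 100 protein-coding genes, chromosome 20 had 5.56 domains, chromosome 10 had 4.57 and chromosome 19 had 4.49, against 0.812 on chromosome 4 and 0.244 on the X chromosome. Domains also came in runs: 118 of 521 (22.6%, 19.3% to 26.4%) lay within 20000 bp of another one. The longest runs held 5 domains, over COL13A1 (163350 bp from first to last base), over the gene-rich interval from TALDO1 to CHID1 on chromosome 11 (111550 bp), and over POLG2, DDX5, CEP95 and SMURF2 (168350 bp). COL13A1 itself was touched by 5 domains that covered 92.0% of it, and CRIM1, whose product is a transmembrane protein with cysteine-rich repeats, by 6 domains that covered 69.9%. In all, 38 protein-coding genes were touched by 2 or more domains. The Pol II list had been scaled without background subtraction, and input was not analysed. Whether DNA copy number or background contributed to this spread and these runs was not tested.

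Of the nuclear domains, 488 (93.7%) touched a protein-coding gene by at least 1 bp. For each of these the main gene was the one that shared most base pairs with the domain. Here and below main genes are counted once per domain, so that a gene with several domains, such as BCAR3, counts several times. The main gene had a median length of 22674.5 bp (19350 to 26604 bp), against 27292.5 bp over all 19138 nuclear protein-coding genes and 31720 bp over the 10856 genes with a Pol II peak within 500 bp of their start. The domain covered a median of 51.1% of the main gene (45.7% to 57.6%), and 90% or more of it in 161 domains. The main gene in turn took up a median of 71.8% of the domain (68.5% to 74.1%). For comparison, the 1140 nuclear Pol II peaks from 5000 bp up to the limit are called 5 to 10 kb peaks below. For these, the share of the main gene covered had a median of 22.6% (20.5% to 24.7%), which follows in part from their width.

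The domains fell into 4 places on the main gene, read from the start and end of its annotated span. Counts of gene starts inside domains, and of Pol II peaks near a start, use instead the start of the canonical transcript. This can lie inside the span. Domains classed here as holding only the end can thus hold the canonical start, as those on PLEC, HSP90AA1, HNRNPH1 and RPS29 did. The end but not the start lay inside in 188 domains (36.1%, 32.1% to 40.3%), and the whole gene lay inside in 151 (29.0%, 25.3% to 33.0%). In 89 domains (17.1%, 14.1% to 20.6%) neither end of the gene was reached, and in 60 (11.5%, 9.05% to 14.5%) the start but not the end lay inside. The main genes differed in length with the place: the median was 7809 bp for genes wholly inside, 26827.5 bp where only the end was inside, 29440 bp where only the start was, and 63496 bp for genes that reached past the domain on both sides. The width of the domain differed less, with medians of 13800, 12875, 13150 and 13600 bp. A Pol II peak lay within 500 bp of the canonical start in 172 of the 188 domains with only the end inside (91.5%). The same held for 84 of the 89 in the middle of a gene (94.4%). The domain itself was counted where it came that close, as on PLEC, so a separate peak at the start is not shown.

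**Figure D2:**
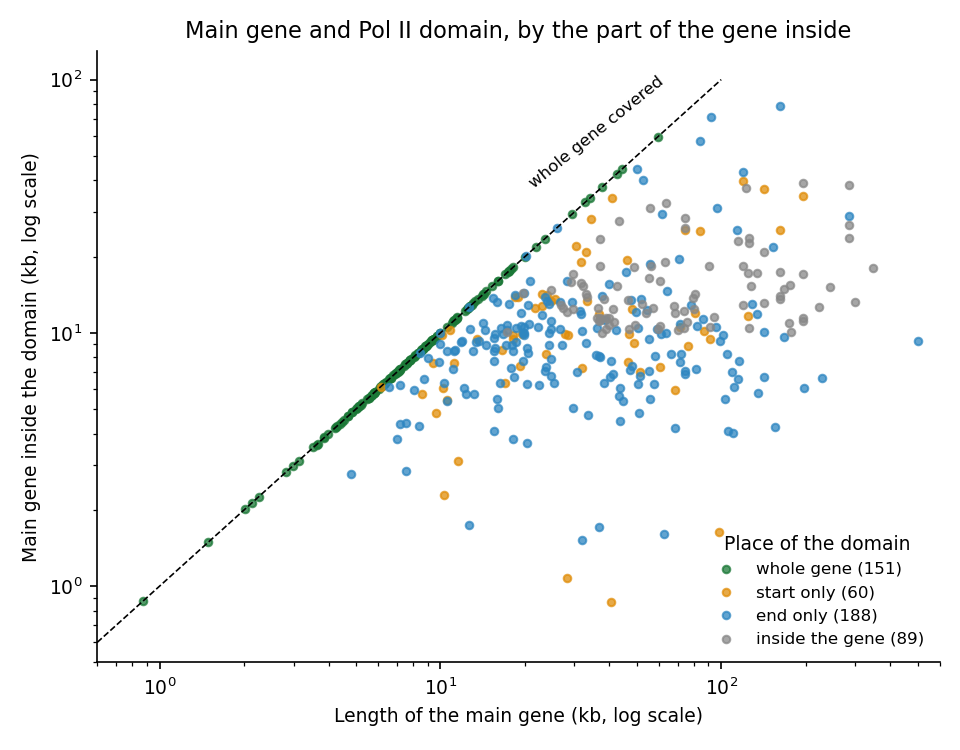
Length of the main gene (x axis, kb, log scale) against the part of it inside the domain (y axis, kb, log scale) for 488 domains, 1 point each, coloured by place. Points on the dashed line are genes wholly inside (151), and the 89 domains that reached neither end of the annotated gene span lie on long genes with a median of 63496 bp.

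Among the 10 widest domains, 5 covered the end but not the start of their main gene. The widest, chr10:71645151-71724501, covered 48.6% of COL13A1, which encodes a transmembrane collagen, and ended 469 bp past the gene. It held 5 H3K4me1 peaks over 10.1% of its length and 6 CTCF peaks, but no H3K4me3, H3K27ac or p300/CBP peak. The part of COL13A1 outside this domain carried 7 H3K4me3, 11 H3K27ac and 5 p300/CBP peaks, with H3K27ac over 54.6% and H3K4me1 over 88.7% of its base pairs. All Pol II peaks together spanned 95.9% of the gene.

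The same layout was seen on DYNC1H1, the heavy chain of cytoplasmic dynein, and on SMURF2, a ubiquitin ligase of the TGF-beta pathway. The DYNC1H1 domain was 74100 bp wide, covered 77.6% of the gene and held H3K27ac over 10.4% of its length, against 83.0% in the 20541 bp of the gene outside it. The SMURF2 domain was 63950 bp wide, covered 36% of the gene and held H3K27ac over 2.27% of its length, against 19.8% outside. Neither of the 2 domains held an H3K4me3 or p300/CBP peak. On SMURF2, as on COL13A1, the part of the gene outside lay largely in other domains. SMURF2 had 4 domains over 95.1% of the gene, and COL13A1 had 5 over 92.0%. The SMURF2 domain described here also included 20799 bp past the gene. ACTN4, which encodes an actin cross-linker, and HIF1A, the oxygen-regulated transcription factor, also had their start outside. Their domains (61550 and 48100 bp) did hold H3K4me3, over 6.01% and 29.6% of their length, and H3K27ac over 63.3% and 29.9%.

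Other genes of this group lay wholly inside their domains. The BCL2L1 domain (67650 bp) covered all 59538 bp of the gene, whose product Bcl-xL inhibits apoptosis, with 9 H3K4me3, 7 H3K27ac and 7 p300/CBP peaks and with H3K27ac over 86.9% of its length. The AXL domain (49600 bp) covered the gene of this receptor tyrosine kinase and reached HNRNPUL1 downstream. The SNAPC1 domain (46350 bp) covered the gene of a subunit of the small nuclear RNA activating complex, ran 11404 bp past it without reaching another protein-coding gene, and held no p300/CBP or CTCF peak. HIF1A and SNAPC1 are neighbours on chromosome 14, and their 2 domains lay within 20000 bp of each other. The LINC-PINT domain, also among the 10 widest, is described with the noncoding genes.

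**Figure D3:**
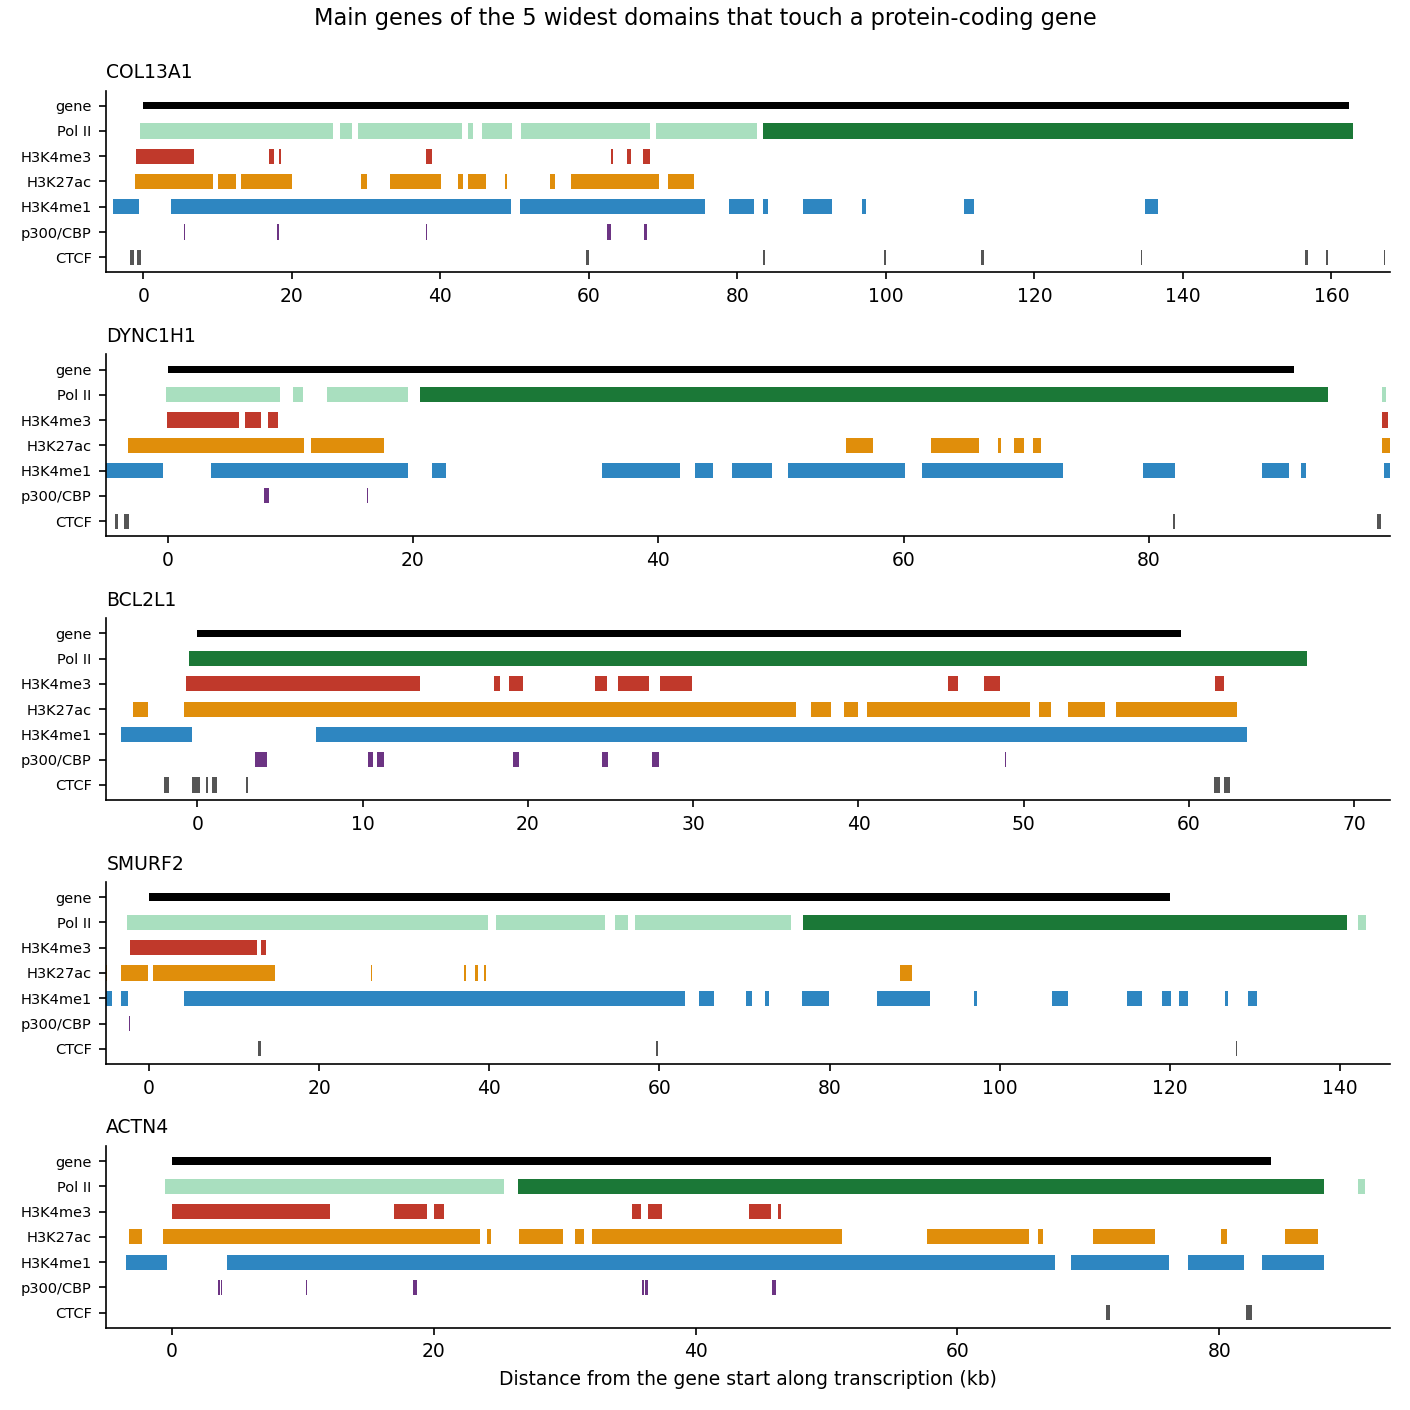
Main genes (black) of the 5 widest domains that touch a protein-coding gene, with the domain (dark green), other Pol II peaks (light green) and the peaks of the other lists, by distance from the gene start along transcription (x axis, kb). On COL13A1, DYNC1H1 and SMURF2 the domain covers the distal part of the gene and no H3K4me3 peak lies in it, whereas the BCL2L1 domain spans the gene and holds 9.

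Extension past the 3′ end was frequent. Of the 488 domains with a main gene, 339 (69.5%, 65.2% to 73.4%) ended past the 3′ end of that gene, 132 of them by over 5000 bp and 27 by over 10000 bp. The median extension was 4246 bp (3828 to 4606 bp) and the longest 20799 bp. For 5 to 10 kb peaks the corresponding share was 52.9% (49.8% to 56.0%) and the median 2772 bp (2626 to 2885 bp), with less room for an extension in the narrower peaks. In 210 of the 339 domains (61.9%, 56.7% to 67.0%) the extension reached another protein-coding gene, so that the Pol II there cannot be assigned to read-through of the main gene by position alone. In the other 129 (38.1%, 33.0% to 43.3%) no other protein-coding gene was reached, and the median extension was 4180 bp (3618 to 4948 bp).

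The longest extension, 20799 bp past SMURF2, ran into CEP95, with 0 bp before that gene. The next longest, 20259 bp past DUSP5, a phosphatase that inactivates ERK, reached no other protein-coding gene; the whole domain on chr10:112250401-112291551 was 41150 bp wide and DUSP5 took up 33.1% of it. The 15894 bp past PDLIM7, a LIM-domain scaffold of the actin cytoskeleton, included 8992 bp before DBN1. Past SRSF1, a splicing factor, 12659 of 14229 bp came before VEZF1. Past TRIM28, a co-repressor of zinc finger proteins, only 729 of 14811 bp came before the next gene. The 14456 bp past RRP36, a ribosome biogenesis factor, included 3460 bp before CUL7, and the 15641 bp past GALNS, a lysosomal sulfatase, held APRT and CDT1 whole. BLID (15597 bp) and C11orf68 (14780 bp) are short genes that took up 4.96% and 12.3% of their domains, so that the extension there is most of the domain, and the one at BLID lay within the noncoding gene MIR100HG.

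In the last 30 bases of the canonical transcript, AATAAA was present in 207 of the 339 main genes with an extension (61.1%, 55.8% to 66.1%) and in 57.9% of all 19138 genes. ATTAAA without AATAAA was present in 14.5% and 13.4%, and neither in 24.5% and 28.8%. The interval of the main genes included the share of all genes in each case, and a match is only a description of these letters.

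Before the gene start the domains ran less far. In 211 domains the edge lay upstream of the start of the main gene, by a median of 1461 bp (1236 to 1881 bp). The DUSP5 domain was among the longer ones, at 7264 bp upstream.

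More than 1 protein-coding gene was touched by 290 domains (55.7%). Of the 521, 191 touched 2 genes, 68 touched 3, 26 touched 4, 4 touched 5 and 1 touched 6. Fewer genes were held whole: 160 domains contained 1 whole gene, 33 contained 2 and 7 contained 3. At least 2 gene starts lay in 106 domains (20.3%, 17.1% to 24.0%), and no gene start lay in 221 (42.4%, 38.2% to 46.7%). Among 5 to 10 kb peaks, 39.8% (37.0% to 42.7%) touched 2 or more genes.

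The arrangement of the 2 genes was most often convergent. Of the 191 domains with exactly 2 genes, 118 (61.8%, 54.7% to 68.4%) touched genes whose 3′ ends face each other, 48 (25.1%) genes on the same strand, 16 (8.38%) divergent genes and 9 (4.71%) genes of which 1 lies in the other. Among 8735 adjacent pairs of protein-coding genes at most 10000 bp apart in the annotation, 30.5% were convergent, 39.9% on the same strand and 22.5% divergent. Among 5 to 10 kb peaks with 2 genes the share was close to that of the domains, with 58.6% convergent (53.4% to 63.5%). Both gene ends lay inside in 98 of the 118 convergent domains (83.1%), and no gene start lay inside in 87 (73.7%).

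The domains with most whole genes lay in gene-dense intervals. The widest of them, chr11:818951-849501, held CD151, a tetraspanin bound to integrins, POLR2L, a small subunit of the RNA polymerases, and CRACR2B whole, and touched PNPLA2 and TSPAN4. The TRIM28 domain (22050 bp) held also CHMP2A, a component of the ESCRT machinery, and UBE2M, the NEDD8-conjugating enzyme. A domain of 18500 bp on chromosome 3 held DALRD3, NDUFAF3, which assembles complex I, and IMPDH2, the rate-limiting enzyme of guanine nucleotide synthesis. A domain of 16000 bp on chromosome 16 held NME3, MRPS34 and EME2 and touched 6 genes, more than any other domain. These 4 held H3K4me3 and H3K27ac, over 28.8% to 51.4% and 20% to 77.7% of their length, and 1 of them, that of CD151, held a p300/CBP peak.

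In all, 861 protein-coding genes were touched by a domain, which is 4.50% of the 19138 tested and 7.55% of the 10856 genes with a Pol II peak at the start (820 genes). Wholly inside a domain lay 247 genes, or 1.29%, and 443 had their start in one. The lists below were drawn up with earlier results of these data known, so the counts describe them and test nothing. The examples named are the widest domains of a list or, in the other cases, were chosen after their values were seen. Among RNA-binding and splicing proteins, 19 of 34 were touched (55.9%), 9 of them wholly inside. SRSF1, SRSF2, SRSF3 and SRSF6, which bind exonic splicing enhancers, and HNRNPA1 and HNRNPL lay wholly inside domains, and the SRSF3 domain ran 12173 bp past the gene. RBM39 had the widest of these domains (36000 bp).

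Of the cytosolic ribosomal protein genes, 30 of 78 were touched (38.5%) and 20 lay wholly inside, among short genes with a median length of 5439 bp. The widest of their domains, on RPS29, measured 17300 bp. Of the translation factors, 11 of 26 were touched (42.3%), including EEF2, the elongation factor that moves the ribosome along, and EIF4A1, the helicase of initiation, both whole. Chaperones and endoplasmic reticulum folding factors had 7 of 30 (23.3%), among them HSP90AB1, HSPA8 and CALR, all whole, and the stress-response factors ATF4 and DDIT3.

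Of the AP-1 and immediate early genes, 10 of 30 were touched (33.3%), each of them with its start inside and 8 of them whole. They included FOSL1 (13300 bp) and FOSL2 (widest domain 17450 bp, 95.4% of the gene covered by 2 domains), the genes of Fra-1 and Fra-2, the ERK phosphatases DUSP5 and DUSP6, and LIF, a cytokine of the interleukin-6 family, in a domain of 23350 bp. Of the EGFR, MAPK and TGF-beta list, 6 of 30 were touched (20%). AXL, SPRY4 (29650 bp) and SPRY2 (13750 bp), the last 2 of which restrain receptor tyrosine kinase signalling, lay whole in their domains. TGFB1 had only 24.8% of its length inside.

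Of the intermediate filament and tubulin genes, 7 of 17 were touched (41.2%), with VIM and TUBB whole and PLEC, the linker plectin, in a domain of 40100 bp that covered 48.0% of it. Of the actin and focal adhesion genes, 9 of 40 were touched (22.5%), with ACTN4, FLNA (99.4% covered) and ACTG1 (71.4% covered) as main genes. Of the integrin, matrix and plasminogen genes, 4 of 41 were touched (9.76%). These were LAMB3 (42800 bp) and PLAU, the urokinase gene, both whole, ITGA3 with 81.3% covered and LAMA5 with 17.4% covered. The median length of a gene in this list was 59358 bp, and 31 of its 41 genes had a Pol II peak at their start.

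Of the glycolytic genes, 6 of 21 were touched (28.6%). PKM lay whole in a domain of 42050 bp, ENO1 in one of 26150 bp, ALDOA in one of 13350 bp and GAPDH in one of 10150 bp. Of the cell cycle and nucleotide synthesis genes, 8 of 27 were touched (29.6%), with TOP2A (33250 bp), CCND1 (21450 bp), CDC20 and CCNB1 whole. Of the 22 genes of luminal and epithelial lineage none was touched, and 8 of them had a Pol II peak at their start. Over all protein-coding genes 4.50% were touched, and 7.55% of those with a Pol II peak at the start. A count of 0 in so short a list does not set it apart from these shares. The keratin gene KRT7, placed in the intermediate filament list, was the main gene of a domain of 14350 bp that covered 73.0% of it. Of 32 protein-coding genes among those with promoters captured in the study, a list that is not complete, 4 were touched (12.5%): FOSL1 and HMGA1, whole, and ZNF114 and PDE2A, with 74.3% and 1.66% covered.

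No protein-coding gene was touched by 33 domains, whose widths had a median of 13750 bp. Among them, 18 touched a long noncoding gene with an approved symbol. The widest, chr7:130549251-130604501, was the LINC-PINT domain of 55250 bp. It held the hairpins of miR-29a and miR-29b and had 5 H3K4me3, 5 H3K27ac and 6 p300/CBP peaks, with H3K27ac over 69.9% of its length. MIR100HG, the host gene of miR-100, let-7a and miR-125b, was covered by a run of 4 domains over 97900 bp, including the one at BLID. The widest of the run (32550 bp) held miR-100 and a let-7a hairpin, had no H3K4me3 peak and had H3K4me1 over 85.3% of its length. The neighbouring one of 25650 bp had 4 H3K4me3 and 3 p300/CBP peaks and H3K27ac over 85.2%.

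The MIR222HG domain on the X chromosome (32450 bp) held miR-221 and miR-222 and had H3K27ac over 80.3% of its length. The MIRLET7BHG domain (32300 bp) held let-7b and a let-7a hairpin and had no p300/CBP peak, with H3K27ac over 10.1% and H3K4me1 over 55.9%. NEAT1, the scaffold RNA of paraspeckles, lay in a domain of 29300 bp with 3 p300/CBP peaks. Outside the 5 widest, and chosen after their values were seen, the MIR17HG domain (19000 bp) held the hairpins of miR-17, miR-18a, miR-19a, miR-20a, miR-19b and miR-92a. A domain of 18700 bp held let-7i, and MALAT1 lay in one of 12000 bp with H3K4me3 over 87.5%. On chromosome 3, between 44051351 and 44118001, 4 domains followed each other with no annotated protein-coding or named long noncoding gene, and a further one of 17950 bp at chr3:44150151-44168101 held the hairpin of miR-138.

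Over all domains, 72 of 1484 microRNA hairpins that could be placed at 1 position on hg19 lay inside, or 4.85%, in 51 domains. Of these hairpins 19 lay in 7 domains without a protein-coding gene. Among those inside protein-coding domains, hsa-miR-21 lay in a domain of 11450 bp that covered the end of VMP1 and ran 5634 bp past it, with H3K27ac over 100% of its length and 5 p300/CBP peaks. This domain covered 4.31% of VMP1 and did not include its start.

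Histone marks were present in nearly all domains. At least 1 H3K4me1 peak shared a base with 496 of the 521 (95.2%, 93% to 96.7%), H3K27ac with 408 (78.3%, 74.6% to 81.6%) and H3K4me3 with 358 (68.7%, 64.6% to 72.5%). All 3 marks were present in 353 domains (67.8%), H3K4me1 alone in 83 (15.9%), H3K27ac and H3K4me1 in 55 (10.6%) and none in 25 (4.80%). The median share of the domain covered was 44.4% for H3K4me1, 27.3% for H3K27ac and 21.2% for H3K4me3. The corresponding shares of domains were lower among 5 to 10 kb peaks, at 79.7%, 60.4% and 53.2%, with intervals that did not overlap those of the domains. A wider peak has more room for a mark, however, and per 10000 bp the domains held 0.739 H3K4me3 and 0.926 H3K27ac peaks, against 1.01 and 1.19 in the narrower class. Of all base pairs, H3K4me3 covered 23.6% in the domains and 24.5% in the narrower class, H3K27ac 32.1% and 30.3%, and H3K4me1 47% and 35.9%.

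**Figure D4:**
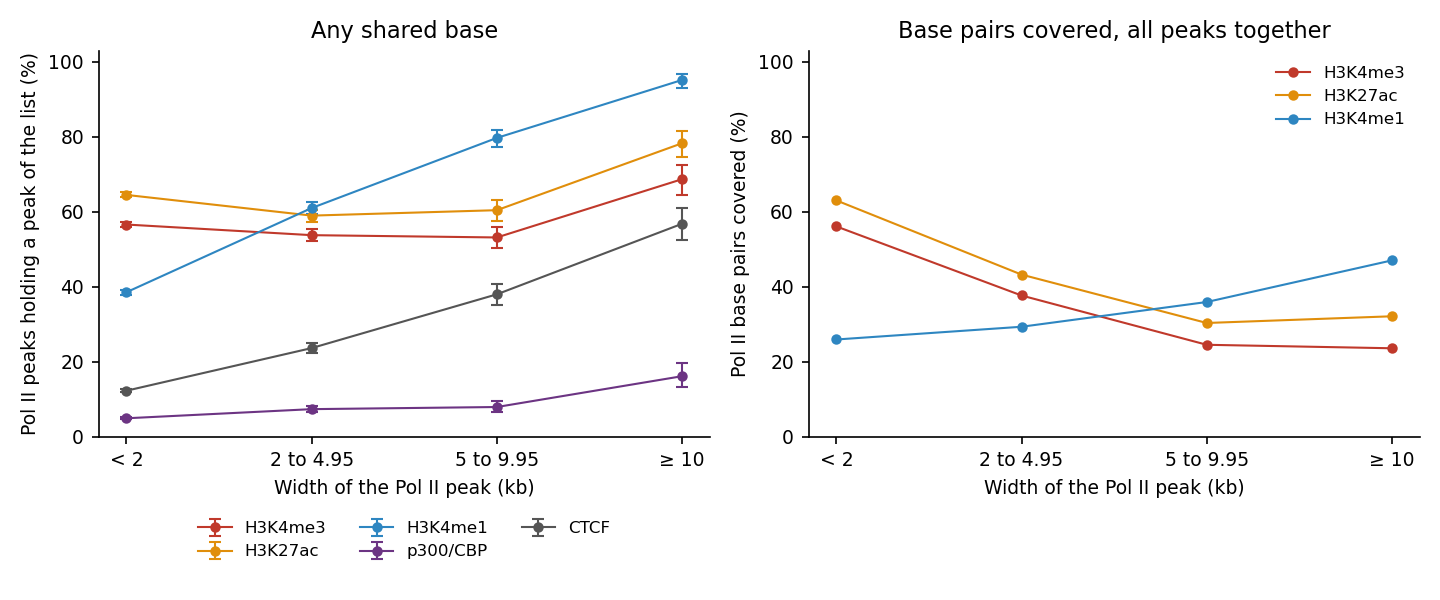
Left, share of Pol II peaks that hold a peak of each list (y axis, %, with 95% Wilson intervals) in 4 classes of Pol II peak width (x axis, kb). Right, share of all Pol II base pairs covered by each histone mark (y axis, %) in the same classes. H3K4me1 covered 25.9% in peaks under 2 kb and 47% in the domains, whereas H3K4me3 covered 56.1% and 23.6%.

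A gene start in the domain went with both promoter marks. Of the 300 domains with at least 1 protein-coding gene start inside, 293 held H3K4me3 (97.7%, 95.3% to 98.9%) and 295 held H3K27ac (98.3%, 96.2% to 99.3%). Of the 221 without, 65 held H3K4me3 (29.4%, 23.8% to 35.7%) and 113 held H3K27ac (51.1%, 44.6% to 57.6%), while 196 held H3K4me1 (88.7%, 83.8% to 92.2%). Among 5 to 10 kb peaks without a gene start, H3K4me3 was present in 26.6% (23.5% to 30.1%), H3K27ac in 37.8% (34.3% to 41.5%) and H3K4me1 in 69.0% (65.4% to 72.3%). These narrower peaks have less room for a mark. Of their base pairs, H3K4me3, H3K27ac and H3K4me1 covered 10.4%, 16.9% and 31.7%, against 8.89%, 17.9% and 40.8% in the domains without a gene start. All 25 domains that held no histone mark had no main gene start inside; 4 of them touched no protein-coding gene, and the others lay at the end or in the middle of genes such as POLG, the mitochondrial DNA polymerase, MAVS, an adaptor of antiviral signalling, and PRC1, a cytokinesis factor (these 3 were chosen after their values were seen).

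The marks differed along the gene. This was read in the 198 domains that touched only 1 protein-coding gene, so that no promoter of a second protein-coding gene contributed. Some of them also touched noncoding genes, as the BCL2L1 and DUSP5 domains did, and the promoters of these were not set apart. Within 2000 bp of the start, H3K4me3 covered 89.2% and H3K27ac 89.8% of the base pairs and H3K4me1 18.4%. In the gene body beyond that, H3K4me3 covered 17.9%, H3K27ac 30.8% and H3K4me1 61.3%. Past the 3′ end, the figures were 10.2%, 19.0% and 38.8%. These 3 parts were read in 110, 194 and 111 of the domains, so that the domains differ between the parts. In 500-bp bins, H3K4me1 covered 3.47% of the bin 0.5 kb past the start, 80.5% at 5 kb and 63.1% at 9.5 kb, whereas H3K4me3 covered 96.9% at 1 kb, 43.8% at 5 kb and 14.2% at 9.5 kb. In 5 to 10 kb peaks, H3K4me1 covered 39.8% of the gene body beyond 2000 bp and 31.9% past the 3′ end.

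**Figure D5:**
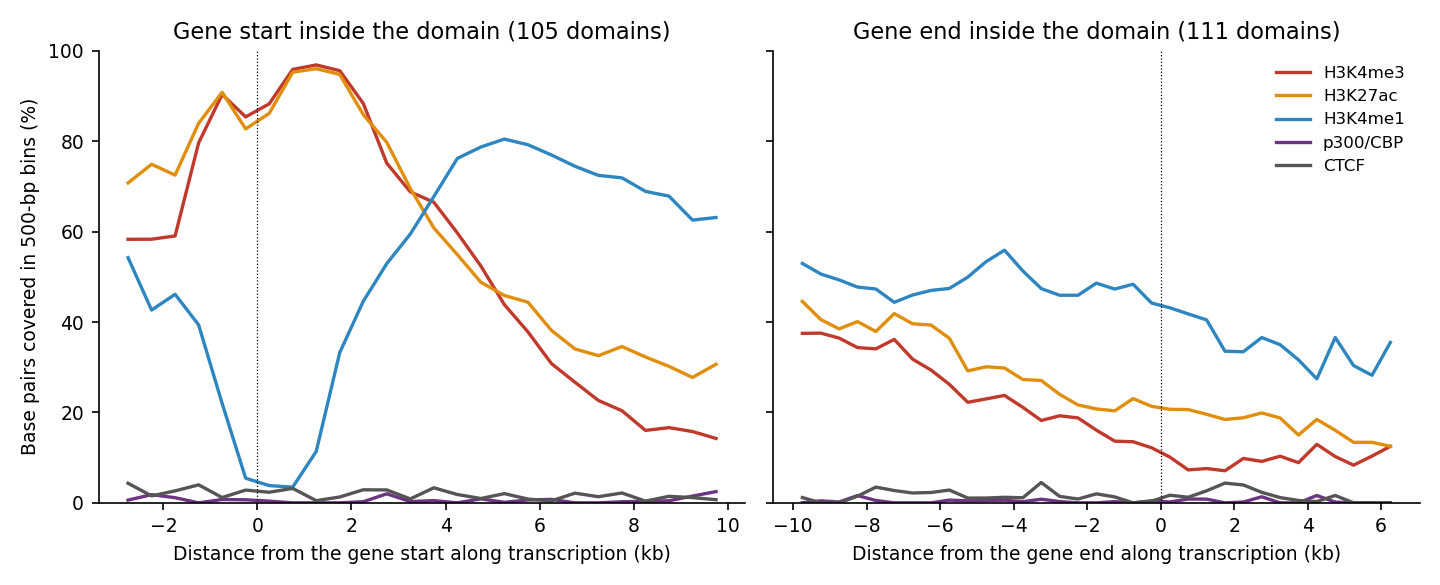
Share of base pairs covered by each list (y axis, %) in 500-bp bins by distance from the gene start (left) and the gene end (right) along transcription (x axis, kb), in domains that touch 1 protein-coding gene. Bins outside the domain are left out and bins with fewer than 20 domains are not drawn; from 0.5 kb before to 1 kb past the start H3K4me3 and H3K27ac cover over 80% while H3K4me1 is below 6%, and H3K4me1 reaches 80.5% at 5 kb.

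p300/CBP was found in 84 domains (16.1%, 13.2% to 19.5%), against 7.89% (6.47% to 9.61%) of 5 to 10 kb peaks. Of the 84, 39 held 1 peak and 45 held more, and 189 p300/CBP peaks lay in domains in all. The domains with p300/CBP were wider than those without, with medians of 18475 bp (15800 to 23200 bp) and 12950 bp (12500 to 13350 bp). Per 10000 bp the domains held 0.222 p300/CBP peaks and the narrower class 0.323. This order did not hold throughout. With a gene start inside, the domains held 0.207 and the narrower class 0.132. Without one, the values were 0.242 and 0.456, and 1 peak of the narrower class alone held 24 p300/CBP peaks. Of the 189 peaks, 182 shared a base with H3K27ac (96.3%, 92.6% to 98.2%), 145 with H3K4me1 (76.7%, 70.2% to 82.2%) and 106 with H3K4me3 (56.1%, 49.0% to 63.0%). Only 8 lay within 1500 bp of a protein-coding gene start, and the median distance to the nearest one was 14448 bp (10398 to 18089 bp).

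By place, p300/CBP was present in 21 of the 89 domains in the middle of a gene (23.6%, 16% to 33.4%), in 24 of the 151 with a whole gene (15.9%, 10.9% to 22.6%), in 20 of the 188 with only the end inside (10.6%, 6.99% to 15.9%), in 8 of the 60 with only the start inside (13.3%, 6.91% to 24.2%) and in 11 of the 33 without a protein-coding gene (33.3%, 19.8% to 50.4%). The interval of the domains with only the end inside stopped barely short of that of the domains in the middle of a gene (15.9% against 16%). Several domains in the middle lay on the same gene, as on BCAR3, so that domains are not independent. The places are therefore not ranked by these intervals. The domain with most p300/CBP peaks, chr16:46386051-46396901, lay 249 bp from the longest undetermined stretch of the chromosome 16 sequence and touched no gene. It held 11 p300/CBP peaks over 88.9% of its length, 7 CTCF peaks and H3K4me3 over 100%. The next were the domains of BCL2L1 (7 peaks), LINC-PINT (6), ENC1 (6) and MYOF (5). ENC1, which encodes an actin-binding adaptor, lay whole in a domain of 19150 bp with H3K27ac over 74.4% of its length. The MYOF domain (15500 bp) lay within the gene of myoferlin, a membrane repair protein, 5591 bp past its start, and was covered by H3K27ac and H3K4me1 over 100% of its length and by 7 H3K4me3 peaks.

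The p300/CBP peaks more than 5 Mb from such an undetermined stretch were searched in the 200 bases around their centre. The pattern TGANTCA, looser than the AP-1 consensus, was sought there. It was present in 87 of the 164 peaks in domains (53.0%, 45.4% to 60.5%) and in 4196 of all 9050 (46.4%, 45.3% to 47.4%), and the interval of the former includes the share of the latter. The stretches of LINC-PINT, ENC1 and MYOF printed above are examples of such matches, while the BCL2L1 domain lay within 5 Mb of an undetermined stretch and its peaks were not counted here. H3K27ac overlapped 96.3% of these p300/CBP peaks in domains, against 69.1% of the 9050. The 9050 were not limited to Pol II peaks, and the share in narrower Pol II peaks was not computed. The difference is thus not shown to be particular to the domains.

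CTCF was present in 296 domains (56.8%, 52.5% to 61.0%), against 38.0% (35.2% to 40.8%) of 5 to 10 kb peaks. Per 10000 bp the order was reversed, with 0.577 peaks in the domains and 0.794 in the narrower class. CTCF was not concentrated at the edges of the domains by these counts: a CTCF peak lay within 1000 bp of 126 of the 1042 edges (12.1%, 10.3% to 14.2%) and of 60 of the 521 centres (11.5%, 9.05% to 14.5%). At the edge past the 3′ end of the main gene the share was 13.9% (10.6% to 17.9%). In 5 to 10 kb peaks the shares were 12.6% at all edges, 13.5% at centres and 15.9% at the edge past the 3′ end.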

How the data were processed

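Pol II, H3K4me1, H3K4me3, H3K27ac, p300/CBP and CTCF had been mapped by ChIP-seq in MDA-MB-231 cells. The authors counted uniquely mapped reads in 50-bp bins of hg19 with PASHA, merged replicates and thresholded the signal. Their methods name BWA for alignment and the submitters' processing notes name Bowtie2. The deposited lists hold peak positions only, with no unit of height, and depth is unknown. The Pol II list was scaled without background subtraction; its threshold was 50, gaps of up to 800 bp were joined and runs under 100 bp dropped. Input libraries were not analysed here.

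Positions, each 1 past a multiple of 50, were read with the end as the first base after the peak and printed as listed. No list reached past a nuclear chromosome of GRCh37. Genes were protein-coding genes with an approved symbol in GENCODE release 44 on GRCh37, readthrough genes left out. Overlap needed 1 shared bp. Tools were Python 3.11.15, NumPy 2.4.6, SciPy 1.17.1, pysam 0.24.0 and matplotlib 3.10.9, and the interval functions, checked on simulated intervals, gave 0 wrong answers in 1200 comparisons. Of the microRNA hairpins, 1484 matched 1 position, 68 matched several and 10 none.

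The domains, gene lists and markers were chosen with earlier results of these data known. Genes were named by rank: the 10 widest domains, the 10 longest extensions, the 5 domains with most whole genes (ties by width), the 5 with most p300/CBP peaks, the 5 widest without a protein-coding gene, 3 peaks on each side of the width limit, and examples from the lists. Alternatives changed the width limit, the overlap, the gene span, the main gene and the mark peaks kept. Some items that these rules name are not reported here.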

Additional observations from a re-analysis of the deposited data

How the results depend on the processing

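Of 63 values recomputed under other settings, 37 stayed within the interval of the reported value (for the number of domains, within 1.5 times). No paired analysis was possible because each list was called on merged libraries. With a limit of 15000 bp, 195 domains were left, 49.7% touched 2 or more genes, the main gene was covered by 58.8%, and H3K4me3, H3K27ac, H3K4me1, p300/CBP and CTCF were present in 74.4%, 85.6%, 97.9%, 28.2% and 63.1%, with H3K4me1 over 49.5% of the domain. With 12000 bp, H3K27ac was present in 82.5% and p300/CBP in 20.1%, and with 8000 bp H3K27ac in 74.2% and H3K4me1 in 92.9%. Joining Pol II peaks less than 2000 bp apart gave 898 domains. The share with 2 or more genes was 49.5% with 1000 bp shared, 13.4% with 50% of the gene inside and 64.3% with long noncoding genes added, so that this share rests on how a gene is counted. On the span of the canonical transcript, which is never longer than the gene, the main gene was covered by 61.7% and 81.5% of domains ended past its 3′ end. Taking as main gene one with its start in the domain raised the cover to 100%. H3K4me1 was present in 90.2% when the centre of its peak had to lie inside. When only mark peaks of the median width or wider were kept, H3K27ac, H3K4me1, p300/CBP and CTCF were present in 72.9%, 89.4%, 12.9% and 43.8%, and H3K4me1 covered 40.9%. Leaving out p300/CBP peaks 5 Mb or less from a long undetermined stretch left 15.2% of domains with p300/CBP. With no height per peak, no stricter Pol II threshold was tried.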
